A study of Mus musculus with 15 samples.

Results

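DNA damage signalling and repair was read as 42 genes, found by symbol in the count table, where each has 1 row among 55341 symbols. The 42 fall into 6 pathways by the textbook role of their proteins: homologous recombination (14 genes), end joining (7), the damage kinases (4), the Fanconi anaemia pathway (6), mismatch repair (2) and base excision with single-strand break repair (9). All 42 passed the filter on low counts and were tested among 13085 genes, and the lowest count of any of them in any library was 50.

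The cells were 6DT1, a mammary cancer line from a mouse of FVB/N1 background, either with Clic4 knocked out or wild type. Clic4 encodes a chloride intracellular channel protein. The 4 groups were knockout cells given 1 µM hydrogen peroxide (H2O2) for 24 h (3 libraries, replicates 5, 7 and 8), untreated knockout cells (4 libraries, replicates 1 to 4), wild-type cells given the same H2O2 (4 libraries, replicates 13 to 16) and untreated wild-type cells (4 libraries, replicates 9 to 12). The labels do not say how many knockout clones were used or whether replicates were separate cultures, so p-values measure the spread between these libraries, which may be technical.

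Library totals ran from 12.3 to 16.0 M counts. Clic4 stood at 68.4 to 75.9 CPM (normalised counts per M) in treated and 64.2 to 75.1 CPM in untreated knockout libraries, against 313 to 317 CPM in treated and 316 to 327 CPM in untreated wild-type libraries. The epithelial keratin gene Krt8 averaged 649.5 CPM in untreated knockout and 646 CPM in untreated wild-type cells. Other epithelial markers differed between the genotypes: Krt18 averaged 153 CPM in untreated knockout and 334 CPM in untreated wild-type cells, Krt19 156 CPM in knockout and 54.2 CPM in wild-type cells, and the oestrogen receptor gene Esr1 0.0817 CPM in knockout and 3.27 CPM in wild-type cells. Of 10 epithelial markers 4 passed the filter, with 1 higher and 2 lower, and the adhesion genes Epcam and Cdh1 were under 0.1 CPM on average in both genotypes. Replicate 9 is titled as untreated wild type but carries knockout in its genotype field, and its Clic4 level was that of the wild type. It also held 4.52 CPM of the leukocyte gene Ptprc and 19.4 CPM of the myeloid gene Lyz2, which reached at most 0.0742 and 0.327 CPM in any other library. The fibroblast markers Pdgfrb and Fap and the endothelial marker Pecam1 stood at 2.90, 0.675 and 2.36 CPM in replicate 9. In any other library they reached at most 0.0708, 0.0685 and 0.347 CPM. Pdgfra (18.4 CPM) and Vwf (20.0 CPM) in replicate 9 lay within or below the range of the other untreated wild-type libraries. Over 14 immune markers the summed level was 270.5 to 284 CPM in treated and 273 to 309 CPM in untreated knockout libraries, against 397 to 423 CPM in treated and 389 to 434 CPM in untreated wild-type libraries, most of it from the lysosomal gene Cd68. Of the 14, 6 were at 0 in treated and 5 in untreated knockout cells, against 5 in treated and 2 in untreated wild-type cells. Among untreated wild-type libraries Ptprc, Cd3e, Cd3g, Adgre1 and Tyrobp were above 0 in replicate 9 alone. Summed fibroblast markers were 11.3 to 14.0 CPM in knockout and 16.9 to 23.2 CPM in wild-type libraries. Most of that sum came from Pdgfra, which averaged 10.99 CPM in untreated knockout and 19.5 CPM in untreated wild-type cells. Summed endothelial markers were 4.98 to 5.73 CPM in knockout and 23.1 to 25.9 CPM in wild-type libraries. That difference came from Vwf, which averaged 1.83 CPM in untreated knockout and 22.2 CPM in untreated wild-type cells. Of the 3 endothelial markers tested without treatment, Vwf was lower in knockout cells and the other 2, Cdh5 and Tie1, were higher. The part of these transcripts in the results below was not tested beyond leaving replicate 9 out. That kept the number of repair genes called between the untreated genotypes at 34 of 42. Of all 13085 genes tested, 8399 to 8773 were called there when any 1 library was left out. The count of calls does not show whether the size of the differences changed.

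As background, cells meet broken or altered DNA with separate machineries. ATM, activated by double-strand breaks, and ATR, activated by stalled replication, phosphorylate the checkpoint kinases CHK2 and CHK1. Homologous recombination copies an intact sister chromatid and therefore works in S and G2 phase, whereas end joining ligates broken ends in any phase. Fanconi anaemia proteins act on crosslinks between DNA strands, mismatch repair corrects replication errors, and base excision repair removes small lesions such as the oxidised guanine that hydrogen peroxide produces. Transcripts of many recombination genes peak in S phase, and their level in bulk RNA varies with the share of cycling cells.

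Did the repair genes differ between untreated knockout and wild-type cells? Among the 42, genes of recombination, of the Fanconi pathway and of the ATR arm were higher in knockout cells. Most classical end-joining genes of the 42 and Atm were lower. Of the 42 genes, 34 differed (81.0%), against 66.8% of all genes tested, in edgeR's quasi-likelihood test with Benjamini-Hochberg adjustment and a threshold of 0.05. These 34 were also the genes whose knockout and wild-type libraries did not overlap, which held for 58.5% of all genes. The higher ones numbered 27 (64.3%, against 33.9% of all genes) and the lower ones 7 (16.7%, against 32.9%). The median log2 difference of the 42 was 0.49, against 0.00 over all genes. At 1.5-fold or more, 18 genes were higher, where 12.5% of all genes were, and 1 was lower, where 11.9% of all genes were.

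The difference was not uniform across pathways, whose counts stand against 33.9% higher and 32.9% lower of all genes. Recombination had 11 of 14 genes higher and 0 lower, with a median log2 difference of 1.00. The Fanconi pathway had 5 of 6 higher and 0 lower (median 0.60), and both mismatch repair genes were higher (median 0.98). Base excision and single-strand break repair had 6 of 9 higher and 1 lower (median 0.36). Among the damage kinases 2 were higher and 1 lower of 4 (median 0.19). End joining went the other way, with 1 of 7 higher and 5 lower (median -0.23).

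**Figure D1:**
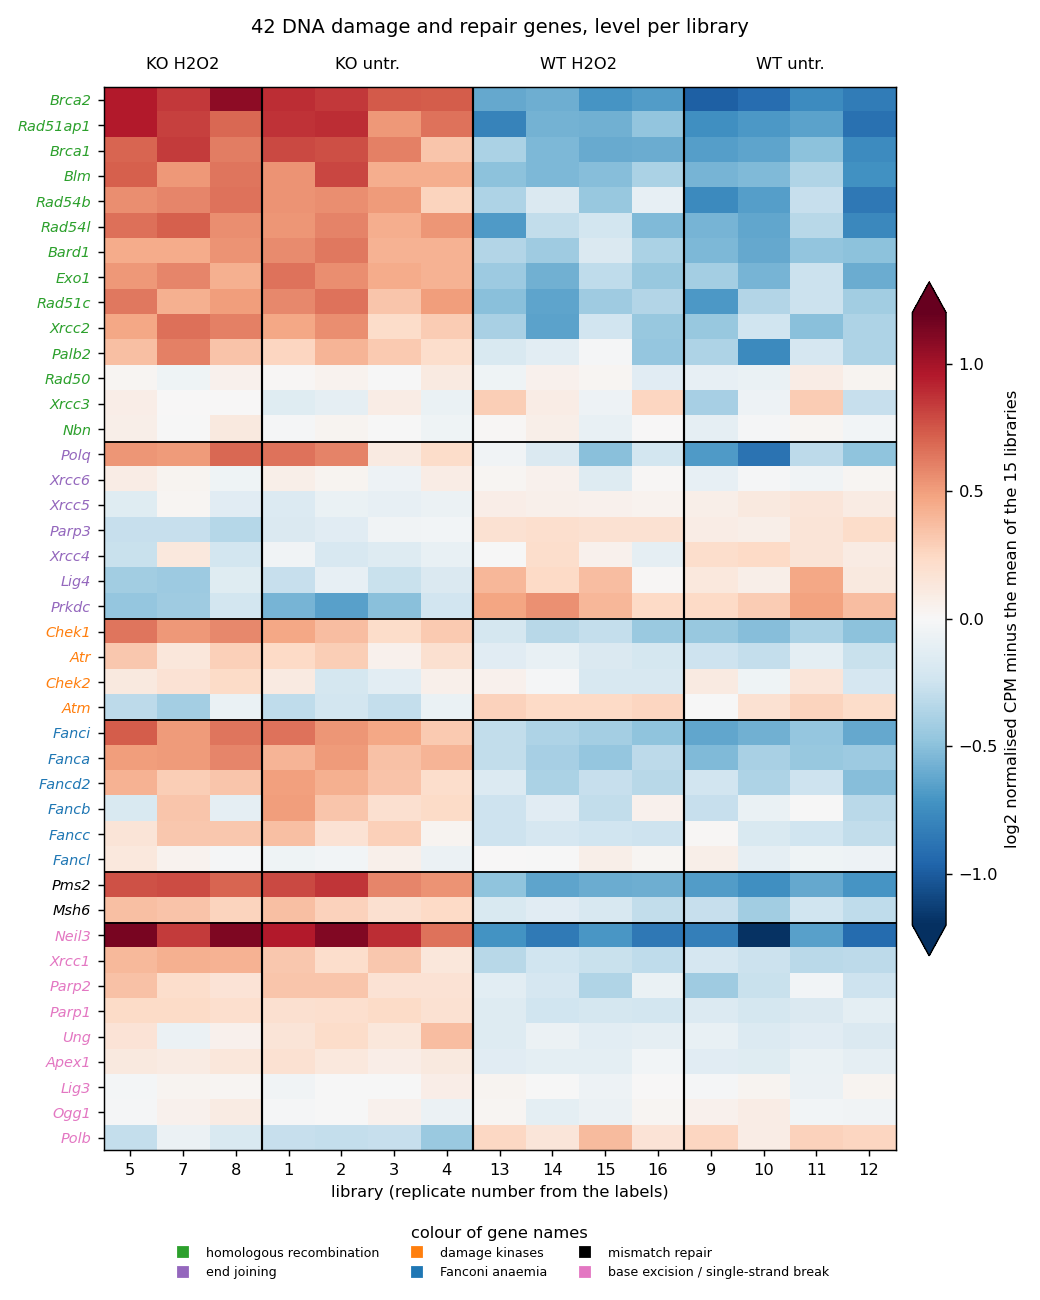
Level of each of the 42 genes (rows, coloured by pathway) in each of the 15 libraries (columns, grouped as knockout with H2O2, knockout untreated, wild type with H2O2 and wild type untreated), as log2 normalised CPM minus the gene's mean over the 15 libraries. Most recombination, Fanconi and mismatch rows are red in the 7 knockout libraries and blue in the 8 wild-type libraries, whereas Prkdc, Lig4, Atm and Polb show the opposite colours.

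Most recombination genes rose. Brca2, a central factor of homologous recombination (chr5:150522630-150570329, plus strand, mm10), had 37.2, 36.1, 33.4 and 33.3 CPM in the untreated knockout libraries, against 10.2, 10.7, 11.9 and 11.2 CPM in untreated wild-type libraries. Every knockout library lay above every wild-type library, and the difference was 3.18-fold (log2 difference 1.67, SE 0.070, adjusted p 5.35e-18). Brca1, the ubiquitin ligase and scaffold that starts repair by recombination (chr11:101488764-101551955, minus strand), had 70.5, 69.3, 61.9 and 51.1 CPM in untreated knockout libraries, against 25.7, 26.2, 28.8 and 24.0 CPM in untreated wild-type libraries. Knockout replicate 4 was the lowest of its group and still above all wild-type libraries (log2 difference 1.27, SE 0.093, adjusted p 2.12e-09). Rad51ap1, which encodes a protein that stimulates strand invasion, had 28.9, 29.2, 22.7 and 24.8 CPM in untreated knockout libraries, against 9.45, 9.78, 10.1 and 8.48 CPM in untreated wild-type libraries (log2 difference 1.48, SE 0.091, adjusted p 3.03e-14).

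The same direction held for partners of these proteins. Bard1, the obligate partner of BRCA1, averaged 18.6 ± 1.39 CPM in untreated knockout and 9.03 ± 0.392 CPM in untreated wild-type cells (SD, n = 4 each; log2 difference 1.04). Palb2, which joins BRCA1 to BRCA2, averaged 9.03 ± 0.528 CPM in knockout and 5.52 ± 0.867 CPM in wild-type cells (log2 difference 0.71). The helicase gene Blm, the nuclease gene Exo1 that resects broken ends, and the DNA translocase genes Rad54l and Rad54b had log2 differences of 1.10, 0.97, 1.09 and 1.10. Of the recombination genes Rad51c, Xrcc2 and Xrcc3, the first and second were higher (log2 difference 0.94 and 0.78), while Xrcc3, with 6.17 ± 0.455 CPM in knockout and 6.06 ± 1.36 CPM in wild-type cells, was not called (log2 difference 0.03, SE 0.131, adjusted p 0.84). Rad50 and Nbn, subunits of the complex that senses broken ends together with the nuclease MRE11, were not called either. Rad50 averaged 76.3 ± 2.75 CPM in knockout and 73.5 ± 4.66 CPM in wild-type cells (log2 difference 0.05, SE 0.048, adjusted p 0.336), and Nbn 35.0 ± 0.886 CPM in knockout and 34.6 ± 1.34 CPM in wild-type cells (log2 difference 0.02, SE 0.052, adjusted p 0.744). A share of 35.8% of the exon bases of Rad54b is shared with Fsbp on the same strand, so its counts may include reads of that gene. The kit keeps strand, but whether the counting used it is not given in the sources used here. Reads of genes that overlap on the other strand may therefore not be told apart. Besides those named below, Lrrc41 covers 15.4% of the exon bases of Rad54l and Desi1 7.69% of those of Xrcc6. Zfp276 covers 10.5% of Fanca, Gm16133 16.4% of Fancc, Vrk2 13.7% of Fancl and Polg 16.0% of Fanci.

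Promoter sequences were searched for the letters bound by E2F factors, which drive S-phase transcription, because the recombination genes moved together. The motif was TTTGGCGC, TTTCCCGC, TTTGCCGC or TTTCGCGC on either strand, in the window from 250 bases before to 50 bases after the start in RefSeq (GRCm38.p6), which held 34 of the 42 genes. It was present in 6 of the 34 (17.6%), against 2.60% of 27025 genes with a promoter and 4.83% of the 9579 tested ones. Among the 23 genes with a promoter that were higher in knockout cells 4 had it, as did 2 of the other 11, Xrcc6 and Chek2, which were not called. The letters TTTGAA of the CHR element were in 2 of 34 promoters (5.88%, against 20.2% of all genes and 14.2% of tested ones), and CCAAT was in 19 of 34 (55.9%, against 41.1% of all genes and 43.4% of tested ones). A match is a description of letters in this window and not a binding site. The 4 promoters of genes that were higher in knockout cells and hold an E2F motif are shown 5′ to 3′ on the strand of the gene, with the motif in capitals.
Brca2: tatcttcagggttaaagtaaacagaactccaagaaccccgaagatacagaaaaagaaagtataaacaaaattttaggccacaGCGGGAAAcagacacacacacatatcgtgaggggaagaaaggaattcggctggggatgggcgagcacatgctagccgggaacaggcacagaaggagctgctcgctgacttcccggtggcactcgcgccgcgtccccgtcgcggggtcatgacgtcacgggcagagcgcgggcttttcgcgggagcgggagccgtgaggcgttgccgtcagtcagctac
Bard1: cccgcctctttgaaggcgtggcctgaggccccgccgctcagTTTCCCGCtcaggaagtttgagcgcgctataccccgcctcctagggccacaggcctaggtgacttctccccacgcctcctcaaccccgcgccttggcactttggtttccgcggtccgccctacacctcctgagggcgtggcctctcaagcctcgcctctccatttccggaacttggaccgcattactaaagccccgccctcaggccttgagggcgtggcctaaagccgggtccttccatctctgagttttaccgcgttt
Rad51c: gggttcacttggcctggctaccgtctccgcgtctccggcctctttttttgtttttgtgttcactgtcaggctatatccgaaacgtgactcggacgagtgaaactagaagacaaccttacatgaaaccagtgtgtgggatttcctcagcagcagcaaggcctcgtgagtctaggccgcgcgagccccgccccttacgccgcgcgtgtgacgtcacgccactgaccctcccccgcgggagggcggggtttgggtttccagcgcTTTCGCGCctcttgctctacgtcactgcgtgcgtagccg
Msh6: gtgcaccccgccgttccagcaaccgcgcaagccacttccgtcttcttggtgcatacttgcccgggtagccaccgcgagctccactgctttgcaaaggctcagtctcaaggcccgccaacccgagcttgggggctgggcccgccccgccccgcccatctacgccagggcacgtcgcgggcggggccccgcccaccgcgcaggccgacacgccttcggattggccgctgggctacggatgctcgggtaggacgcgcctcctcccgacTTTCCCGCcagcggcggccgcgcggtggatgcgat

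The Brca2 window is chr5:150522371-150522670, plus strand, with the motif at position -168 relative to the start. The Bard1 window is chr1:71102923-71103222, minus strand, with the motif at position -209. In Rad51c (chr11:87404457-87404756, minus strand) and Msh6 (chr17:87974800-87975099, plus strand) the motif lies just downstream of the start, at positions 12 and 16. These 4 genes had log2 differences of 1.67, 1.04, 0.94 and 0.57, while Neil3, Rad51ap1, Pms2 and Brca1, among the 5 largest increases of the 42, have no such letters in their windows.

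End joining showed the reverse pattern in most of its classical factors among the 42 genes. Prkdc, which encodes the catalytic subunit of DNA-PK that binds Ku at broken ends (chr16:15637866-15842235, plus strand), had 10.7, 10.1, 11.1 and 13.5 CPM in the untreated knockout libraries, against 18.6, 19.5, 22.0 and 20.3 CPM in untreated wild-type libraries. The groups did not overlap, and the knockout level was 0.566 times the wild-type level (log2 difference -0.82, SE 0.089, adjusted p 4.33e-09), the largest decrease among the 42 genes. Lig4, the ligase that seals the ends, had 6.36, 7.19, 6.39 and 6.81 CPM in untreated knockout libraries, against 8.37, 8.08, 10.6 and 8.36 CPM in untreated wild-type libraries (log2 difference -0.40, SE 0.112, adjusted p 0.00248). Its partner Xrcc4 averaged 14.5 ± 0.688 CPM in knockout and 17.8 ± 0.753 CPM in wild-type cells (log2 difference -0.30, SE 0.084, adjusted p 0.00299).

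The 2 subunits of Ku, the ring that first binds a broken end, moved differently. Xrcc5 (Ku80) averaged 57.2 ± 1.59 CPM in untreated knockout and 66.2 ± 1.40 CPM in untreated wild-type cells (log2 difference -0.21, SE 0.044, adjusted p 1.41e-04), while Xrcc6 (Ku70) averaged 59.1 ± 2.63 CPM in knockout and 56.5 ± 2.01 CPM in wild-type cells and was not called (log2 difference 0.07, SE 0.050, adjusted p 0.248). Parp3, an ADP-ribosyltransferase that promotes end joining, averaged 90.0 ± 4.34 CPM in knockout and 106 ± 5.10 CPM in wild-type cells (log2 difference -0.23, SE 0.041, adjusted p 1.28e-05). The exception was Polq, the polymerase of the alternative end-joining route that uses short stretches of homology. It had 10.9, 10.5, 7.47 and 8.08 CPM in untreated knockout libraries, against 4.32, 3.76, 5.57 and 4.98 CPM in untreated wild-type libraries (log2 difference 0.98, SE 0.136, adjusted p 3.54e-07). Its 2 lower knockout libraries, replicates 3 and 4, still lay above the highest wild-type library.

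**Figure D2:**
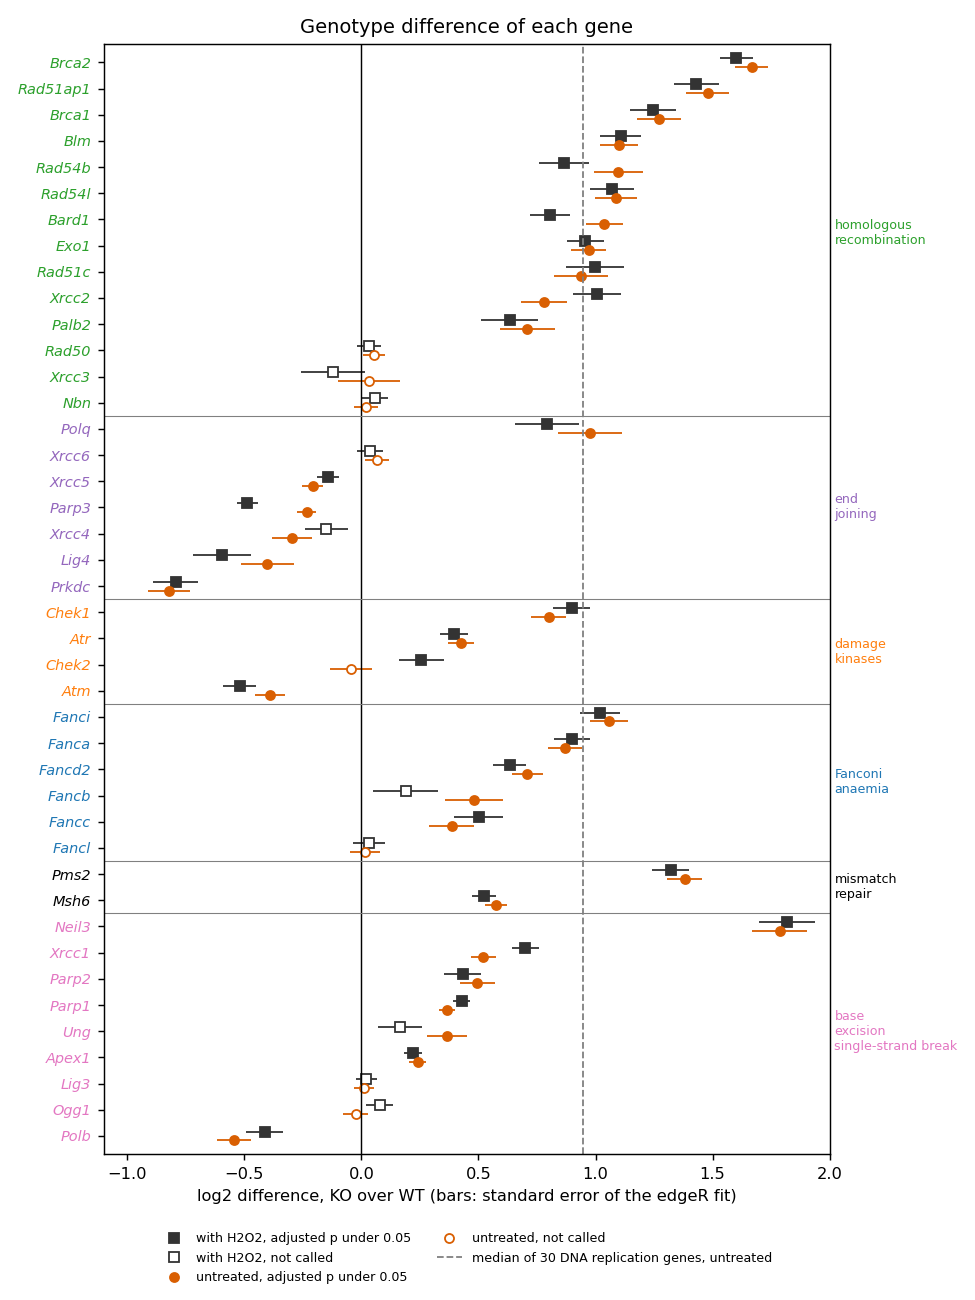
Log2 difference of knockout over wild type for each of the 42 genes, with H2O2 (squares) and untreated (circles), with bars for the standard error of the edgeR fit and filled symbols for an adjusted p under 0.05. Brca2 and Neil3 lie beyond 1.5, Prkdc near -0.8, and the dashed line marks the median of 30 DNA replication genes without treatment (0.95).

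The damage kinases moved in both directions, with Atr and Chek1 higher, Atm lower and Chek2 not called. Chek1, the effector kinase of ATR (chr9:36708482-36727065, minus strand), had 21.0, 19.8, 17.8 and 19.0 CPM in untreated knockout libraries, against 11.1, 10.7, 11.8 and 10.8 CPM in untreated wild-type libraries, with no overlap (log2 difference 0.80, SE 0.075, adjusted p 2.27e-10). Atr had 56.8, 59.1, 49.9 and 55.1 CPM in untreated knockout libraries, against 40.6, 39.5, 44.4 and 39.9 CPM in untreated wild-type libraries (log2 difference 0.43, SE 0.056, adjusted p 1.52e-07). Atm fell, to 34.0, 35.9, 34.4 and 39.8 CPM in untreated knockout libraries, against 41.9, 47.7, 50.6 and 48.8 CPM in untreated wild-type libraries (log2 difference -0.39, SE 0.065, adjusted p 7.03e-06). The closest libraries of the 2 groups for Atm were knockout replicate 4 and wild-type replicate 9, which did not overlap. Chek2, the effector kinase of ATM, had 14.7, 11.8, 12.5 and 14.2 CPM in untreated knockout libraries, against 14.7, 13.2, 15.1 and 11.9 CPM in untreated wild-type libraries, which overlapped (log2 difference -0.04, SE 0.090, adjusted p 0.683). Of 19 other damage signalling genes 14 were higher (73.7%) and 1 lower (5.26%), against 33.9% and 32.9% of all genes. Timeless, part of the complex that stabilises stalled forks, rose most (log2 difference 1.36, SE 0.063, adjusted p 4.88e-17). Telo2, which stabilises ATM-family kinases, was the lower one (log2 difference -0.23, SE 0.067, adjusted p 0.00448).

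In the Fanconi pathway the pair that is ubiquitinated at crosslinks rose together. Fanci had 23.4, 21.5, 20.5 and 18.5 CPM in untreated knockout libraries, against 9.65, 9.99, 10.8 and 9.76 CPM in untreated wild-type libraries (log2 difference 1.06, SE 0.081, adjusted p 3.63e-12). Fancd2 had 52.2, 49.8, 47.2 and 43.1 CPM in untreated knockout libraries, against 31.7, 28.7, 31.2 and 26.0 CPM in untreated wild-type libraries (log2 difference 0.71, SE 0.066, adjusted p 1.76e-10). Among the subunits of the core complex, the ligase assembly that modifies the pair, Fanca had 18.8, 20.2, 17.98 and 18.7 CPM in untreated knockout libraries, against 9.79, 10.8, 10.3 and 10.5 CPM in untreated wild-type libraries (log2 difference 0.87, SE 0.072, adjusted p 2.04e-11). Fancb and Fancc rose less, by log2 0.48 and 0.39. Fancl, the catalytic subunit, averaged 19.3 ± 0.756 CPM in knockout and 19.1 ± 1.02 CPM in wild-type cells and was not called (log2 difference 0.01, SE 0.064, adjusted p 0.85).

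Both mismatch repair genes rose, Pms2 more than Msh6. Pms2, an endonuclease subunit of mismatch repair (chr5:143909964-143933968, plus strand), had 31.6, 33.1, 27.3 and 26.4 CPM in untreated knockout libraries, against 11.5, 10.9, 11.9 and 11.2 CPM in untreated wild-type libraries, a 2.60-fold difference (log2 difference 1.38, SE 0.075, adjusted p 1.90e-15). Msh6, which takes part in recognising single-base mismatches, had 79.7, 74.9, 70.8 and 72.8 CPM in untreated knockout libraries, against 51.0, 46.5, 52.3 and 50.2 CPM in untreated wild-type libraries (log2 difference 0.57, SE 0.048, adjusted p 2.63e-11). Of 5 other mismatch repair genes 3 were higher (60%) and 0 lower, against 33.9% and 32.9% of all genes. Their median log2 difference was 0.18, the largest being Mlh3 (log2 difference 0.39, SE 0.070, adjusted p 1.54e-05).

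Base excision genes ranged from the largest increase among the 42 to the second largest decrease. Neil3, a glycosylase that removes oxidised bases and is known from proliferating cells (chr8:53586867-53639065, minus strand), had 15.6, 17.5, 14.9 and 12.7 CPM in untreated knockout libraries, against 4.59, 3.54, 5.15 and 4.27 CPM in untreated wild-type libraries, 3.45-fold more (log2 difference 1.79, SE 0.116, adjusted p 9.84e-14). Ogg1, the glycosylase for oxidised guanine, averaged 36.0 ± 1.29 CPM in knockout and 36.7 ± 1.65 CPM in wild-type cells and was not called (log2 difference -0.02, SE 0.053, adjusted p 0.707). Camk1 on the opposite strand covers 10.6% of its exon bases, at 271 CPM in untreated knockout and 327 CPM in untreated wild-type cells (log2 difference -0.27). Ung, which removes uracil, averaged 11.4 ± 0.836 CPM in knockout and 8.84 ± 0.248 CPM in wild-type cells (log2 difference 0.36, SE 0.086, adjusted p 4.90e-04). Apex1, the endonuclease that cuts the resulting baseless site, averaged 135 ± 3.67 CPM in knockout and 114 ± 2.44 CPM in wild-type cells (log2 difference 0.24, SE 0.036, adjusted p 1.21e-06). Pip4p1 on the opposite strand covers 61.7% of the exon bases of Apex1 and was lower in knockout cells, by -0.41 on the log2 scale.

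Downstream of the glycosylases the factors separated further. Polb, the polymerase that fills the gap, fell to 14.9, 14.8, 14.9 and 13.2 CPM in untreated knockout libraries, against 21.5, 19.1, 21.9 and 21.6 CPM in untreated wild-type libraries (log2 difference -0.54, SE 0.074, adjusted p 2.72e-07). Its scaffold partner Xrcc1 had 43.8, 40.4, 43.8 and 38.5 CPM in untreated knockout libraries, against 30.5, 29.3, 28.0 and 28.2 CPM in untreated wild-type libraries (log2 difference 0.52, SE 0.054, adjusted p 1.52e-09). Lig3, the ligase that XRCC1 stabilises, averaged 71.9 ± 2.51 CPM in knockout and 71.3 ± 2.33 CPM in wild-type cells and was not called (log2 difference 0.01, SE 0.041, adjusted p 0.822). A share of 25.1% of its exon bases is covered on the opposite strand by Rffl, which was higher in knockout cells (log2 difference 1.36). The break sensors Parp1 and Parp2 were both higher, Parp1 at 193 ± 2.62 CPM in knockout and 149.8 ± 3.89 CPM in wild-type cells (log2 difference 0.37, SE 0.034, adjusted p 1.82e-10) and Parp2 at 32.4 ± 2.07 CPM in knockout and 23.0 ± 2.64 CPM in wild-type cells (log2 difference 0.49, SE 0.074, adjusted p 1.30e-06).

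**Figure D3:**
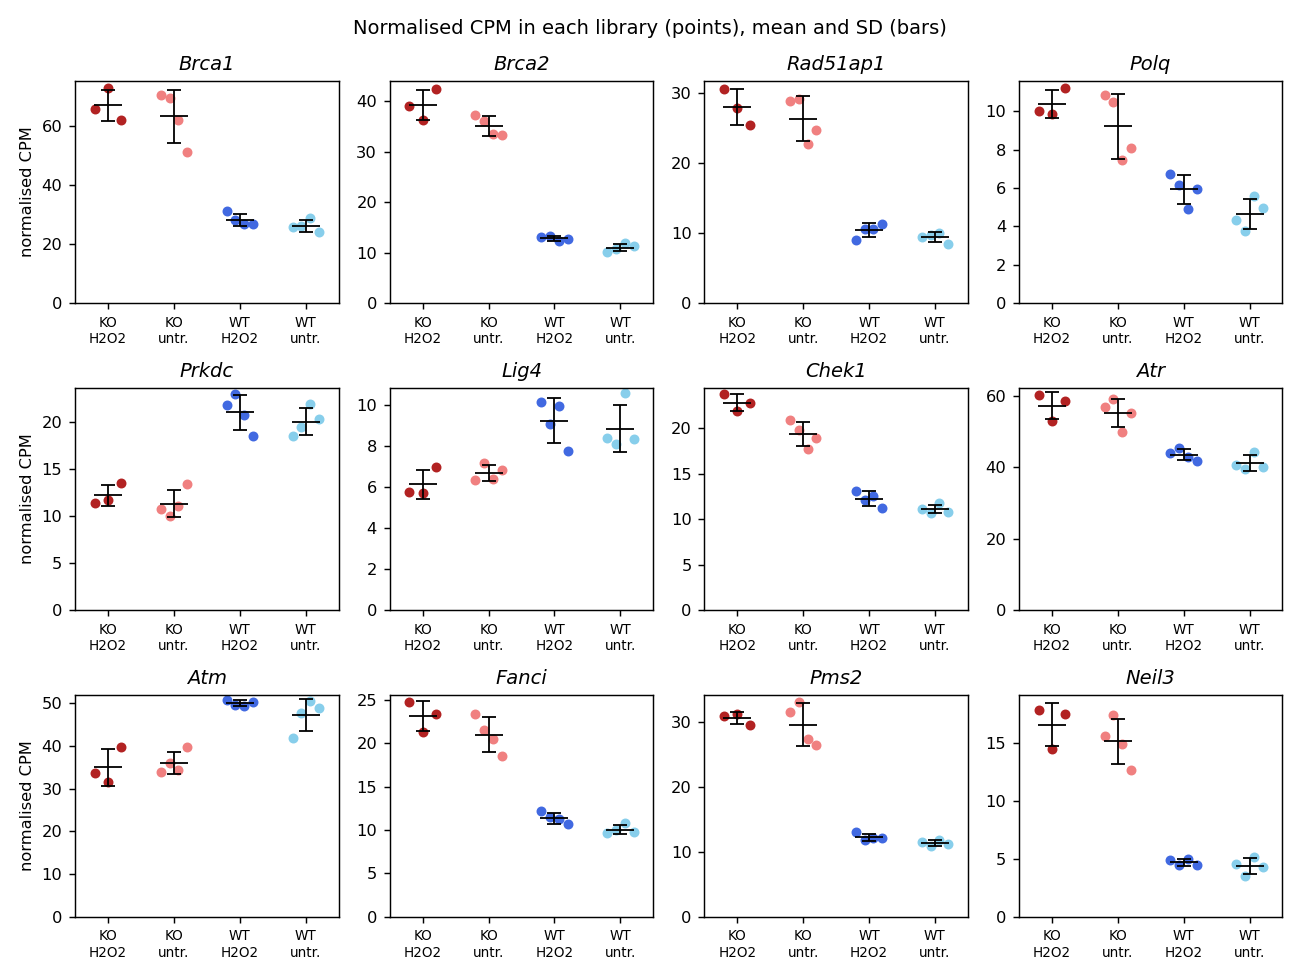
Normalised CPM (vertical axes from 0) of 12 genes in each library, with knockout groups left of wild-type groups and H2O2 left of untreated, and with the mean and SD as bars. For 9 of the genes the 7 knockout libraries lie above the 8 wild-type libraries, and for Prkdc, Lig4 and Atm they lie below.

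Compared per length, the same genes spanned a wide range of levels. The order depends on the gene lengths behind the deposited RPKM, which for some genes are far from the annotation: the ratio of CPM to RPKM gives Parp1 a length of 0.860 kb, against 5.29 kb of merged exons in GENCODE. In reads per kilobase per M counts (RPKM), Parp1 was listed highest at 219.7 ± 2.89 RPKM in untreated knockout and 174 ± 3.99 RPKM in untreated wild-type cells, followed by Apex1 at 69.8 ± 1.84 RPKM in knockout and 60.4 ± 1.13 RPKM in wild-type cells and Xrcc6 at 31.5 ± 1.44 RPKM in knockout and 30.8 ± 1.04 RPKM in wild-type cells (SD, n = 4 each). With merged exon lengths instead, Apex1 stood first in both genotypes, at 94.6 CPM per kb in knockout and 80.1 CPM per kb in wild-type cells, and Parp1 stood at 36.5 CPM per kb in knockout and 28.3 CPM per kb in wild-type cells. By RPKM Brca1 stood 4th of the 42 in knockout and 8th in wild-type cells, at 29.1 ± 4.02 and 12.3 ± 0.944 RPKM in that order of genotype. By exon length Brca1 was 12th in knockout and 19th in wild-type cells. Prkdc was 42nd in knockout cells, at 0.449 ± 0.0607 RPKM, and 39th in wild-type cells, at 0.813 ± 0.0568 RPKM. Polq was 41st in knockout cells, at 0.564 ± 0.103 RPKM, and last in wild-type cells, at 0.291 ± 0.0483 RPKM. By exon length Prkdc was again last in knockout cells and Polq last in wild-type cells. The RPKM levels of Prkdc and Polq differed by less than the sum of their SDs in knockout cells and by more than that in wild-type cells.

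Genes of cell proliferation moved with the recombination genes. Of 30 DNA replication genes 29 were higher in untreated knockout cells (96.7%) and 0 lower, with a median log2 difference of 0.95. All 30 mitosis genes were higher, with a median of 0.88. Of all genes, 33.9% were higher and 32.9% lower. The recombination median of 1.00 was thus close to both. Within the untreated knockout group, replicate 2 had the highest median level of recombination, replication and mitosis genes (0.57, 0.53 and 0.53, as log2 deviation from the mean of the 15 libraries). The lowest was replicate 4 for recombination and replication (0.36 and 0.35) and replicate 3 for mitosis (0.34). The order of libraries was not shared by all lists in the other groups: in treated knockout cells replicate 7 was highest for recombination (0.57) and lowest for replication (0.52), and in untreated wild-type cells replicate 11 was highest for recombination (-0.30) and replication (-0.39) but replicate 9 for mitosis (-0.35). In bulk RNA a larger share of cells in S and G2 phase and more RNA of these genes per cell cannot be told apart, and the part of proliferation in the differences was not tested.

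Other repair genes, 124 in 9 lists, were read in the same comparison; 6 of the lists hold further genes of the pathways above, and 3 cover nucleotide excision repair, translesion synthesis and direct reversal. Of the 122 tested, 55 were higher and 27 lower (median log2 difference 0.11), against 33.9% higher and 32.9% lower of all genes. Among 26 other recombination genes 15 were higher and 6 lower. Of those at 5 CPM or more (a limit that holds for the extremes of each list here), Brip1, a helicase partner of BRCA1, rose most (log2 difference 1.30, SE 0.078, adjusted p 1.70e-14), and the junction nuclease gene Mus81 fell most (log2 difference -0.46, SE 0.100, adjusted p 2.75e-04). Among 13 other end-joining genes 4 were higher and 4 lower, and Mad2l2, which protects ends from resection, rose most (log2 difference 0.60, SE 0.075, adjusted p 6.16e-08). Of the classical factors there, Nhej1 was higher (log2 difference 0.36, SE 0.141, adjusted p 0.0272). Paxx was lower (log2 difference -0.28, SE 0.095, adjusted p 0.0114), and Dclre1c and Poll were not called (adjusted p 0.278 and 0.754). Of 12 other Fanconi genes 6 were higher and 1 lower, with Fancf at log2 0.89 and the nuclease gene Fan1 at log2 -0.41.

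The remaining lists can be read against the same 33.9% higher and 32.9% lower of all genes, and differences between lists were not tested. Of 15 other base excision genes tested 8 were higher (53.3%) and 2 lower (13.3%). Lig1, the replicative ligase that also seals long repair patches, rose most (log2 difference 1.17, SE 0.057, adjusted p 5.34e-16) and Aptx, which repairs aborted ligations, fell most (log2 difference -0.23, SE 0.084, adjusted p 0.0188). Nucleotide excision repair, which removes bulky lesions, had 1 of 21 genes higher (4.76%) and 9 lower (42.9%). Uvssa, a factor of transcription-coupled repair, fell most (log2 difference -0.93, SE 0.098, adjusted p 7.59e-09). In translesion synthesis 4 of 9 were higher (44.4%) and 3 lower (33.3%), near the shares of all genes, with the ubiquitin ligase gene Rad18 at the top (log2 difference 1.17, SE 0.073, adjusted p 3.82e-11) and Hltf at the bottom (log2 difference -0.43, SE 0.055, adjusted p 8.89e-08). Of 2 direct reversal genes tested, Alkbh3 was lower (log2 difference -0.13, SE 0.057, adjusted p 0.049). Among 17 genes induced by p53, the transcription factor that damage signalling activates, 9 were higher (52.9%) and 4 lower (23.5%; median log2 difference 0.19). The smallest p-values there belonged to Perp, at 0.0675 CPM in knockout and 38.5 CPM in wild-type cells, and to the receptor gene Eda2r (log2 difference 1.92, SE 0.103, adjusted p 1.17e-13).

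Position in the genome was set beside these differences. For each of the 42 genes the median log2 difference of the other tested genes with starts within 5 Mb was taken, over 12 to 176 neighbours. It lay within 0.2 of 0 for 40 of the 42. The other 2 were Brca2 and Pms2, both on distal chromosome 5. Around Brca2, 29 of 41 neighbours were higher and 3 lower, with a median of 0.67, which leaves Brca2 above its neighbours by 0.99. Around Pms2, 74 of 93 were higher and 5 lower, with a median of 0.46, which leaves Pms2 above them by 0.92. Brca1 on chromosome 11 had a neighbourhood median of -0.01 and Prkdc on chromosome 16 one of -0.06. DNA copy number was not measured in these files, and its part in the values of Brca2 and Pms2 was not tested.

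**Figure D4:**
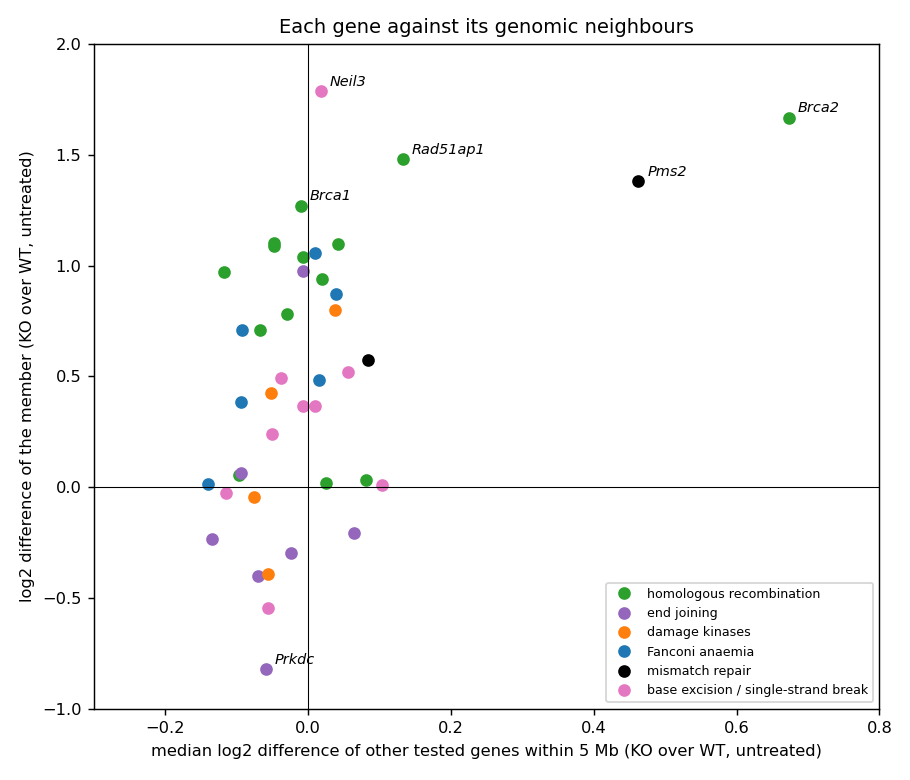
Log2 difference of each of the 42 genes (vertical axis) against the median log2 difference of the other tested genes within 5 Mb (horizontal axis), both for untreated knockout over untreated wild type. Brca2 and Pms2 stand to the right at 0.67 and 0.46, and the other 40 lie within 0.2 of 0 on the horizontal axis.

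The comparison of knockout with wild-type cells under H2O2 used libraries that the untreated comparison did not. Here 32 of the 42 genes differed (76.2%), against 65.4% of all genes tested, 26 of them higher and 6 lower, against 33% and 32.4% of all genes. The same 32 were the genes without overlap between the groups, as were 66.4% of all genes. At 1.5-fold or more, 19 were higher and 2 lower, against 12.8% and 12.7% of all genes. Of the 42 genes 31 were called in both comparisons, 25 higher and 6 lower in both, and none of the 31 changed direction. The median absolute change of the log2 difference between the comparisons was 0.06 and the largest was 0.30, for Chek2. Brca2 had 39.0, 36.3 and 42.4 CPM in treated knockout libraries, against 13.2, 13.4, 12.3 and 12.6 CPM in treated wild-type libraries (log2 difference 1.60, SE 0.072, adjusted p 3.32e-17). Neil3 had 17.8, 14.5 and 17.5 CPM in treated knockout libraries, against 4.91, 4.48, 4.97 and 4.45 CPM in treated wild-type libraries (log2 difference 1.82, SE 0.121, adjusted p 2.00e-13). Prkdc had 11.5, 11.7 and 13.5 CPM in treated knockout libraries, against 21.9, 23.0, 20.8 and 18.6 CPM in treated wild-type libraries, again without overlap (log2 difference -0.79, SE 0.097, adjusted p 4.21e-08).

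A few calls were made in 1 of the 2 comparisons. Chek2 was called under H2O2, with 14.9, 15.4 and 16.0 CPM in treated knockout libraries, against 14.2, 13.5, 12.0 and 11.9 CPM in treated wild-type libraries (log2 difference 0.26, SE 0.097, adjusted p 0.0223). Fancb, Ung and Xrcc4 were called without treatment and not under H2O2, where their log2 differences were 0.19 (SE 0.138, adjusted p 0.231), 0.16 (SE 0.095, adjusted p 0.13) and -0.15 (SE 0.093, adjusted p 0.16). For each of these 4 genes the test of the difference between the comparisons, the interaction of knockout and H2O2, was not passed. Its log2 value was 0.30 (SE 0.132, adjusted p 0.797) for Chek2, -0.29 (SE 0.186, adjusted p 0.881) for Fancb, -0.20 (SE 0.128, adjusted p 0.881) for Ung and 0.15 (SE 0.126, adjusted p 0.929) for Xrcc4. The 7 genes called in neither comparison were Rad50, Nbn, Xrcc3, Xrcc6, Fancl, Ogg1 and Lig3.

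Did 24 h of 1 µM H2O2 change repair transcripts? None of the 42 genes was called in edgeR in either genotype. In knockout cells 0 of the 42 were called, as were 7 of 13085 genes (0.0535%), and 6 of the 42 had an unadjusted p under 0.05, against 7.96% of all genes. In wild-type cells 0 of the 42 were called, as were 2 of all genes (0.0153%), and again 6 of the 42 had an unadjusted p under 0.05, against 6.47% of all genes. The median log2 difference of the 42 was 0.06 in knockout and 0.06 in wild-type cells, and the extremes were -0.28 and 0.24 in knockout cells and -0.13 and 0.36 in wild-type cells. The interaction called 0 of the 42 and 0 of all genes (0%), with 3 of the 42 under an unadjusted p of 0.05, against 6.18% of all genes. The treated and untreated libraries did not overlap for 4 of the 42 genes in knockout cells (Parp3, Chek1, Chek2 and Xrcc1), against 7.71% of all genes, and for 2 in wild-type cells (Brca2 and Bard1), against 3.81%.

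The smallest p-values among the treatment differences were for Parp3 in knockout cells and Rad54b in wild-type cells. Parp3 had 79.5, 79.4 and 75.8 CPM in treated knockout libraries, against 85.2, 87.4, 93.3 and 94.0 CPM in untreated knockout libraries. The treated libraries were all below the untreated ones (log2 difference -0.20, SE 0.046, adjusted p 0.0966). DESeq2 gave an adjusted p of 0.016, its only call among the 42 for either treatment comparison. However, DESeq2 gave some of the 42 no adjusted p, so it could not call them. These included Brca2, Chek1, Chek2, Fancb and Xrcc1 in knockout cells and Bard1, Rad54b, Polq and Fanci in wild-type cells. In wild-type cells Parp3 averaged 109.7 ± 0.491 CPM with H2O2 and 106 ± 5.10 CPM without (log2 difference 0.05, SE 0.040, adjusted p 0.891), and the interaction was -0.25 (SE 0.061, adjusted p 0.455). Rad54b had 9.76, 11.2, 9.21 and 11.8 CPM in treated wild-type libraries, against 7.43, 8.01, 10.4 and 6.95 CPM in untreated wild-type libraries, which overlapped (log2 difference 0.36, SE 0.111, adjusted p 0.508). Ogg1, whose substrate hydrogen peroxide generates, averaged 37.4 ± 1.48 CPM with H2O2 and 36.0 ± 1.29 CPM without in knockout cells, and 35.4 ± 1.68 CPM with H2O2 and 36.7 ± 1.65 CPM without in wild-type cells. Brca2 had unadjusted p-values under 0.05 in both genotypes, with log2 differences of 0.16 (SE 0.065, adjusted p 0.52) in knockout and 0.23 (SE 0.079, adjusted p 0.583) in wild-type cells. The p53-induced genes had 0 of 17 called in either genotype, where 0.0535% of all genes were called in knockout and 0.0153% in wild-type cells. Their median log2 differences were 0.07 in knockout and -0.04 in wild-type cells. In each genotype 3 of the 17 had an unadjusted p under 0.05 in edgeR, against 7.96% of all genes in knockout and 6.47% in wild-type cells.

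**Figure D5:**
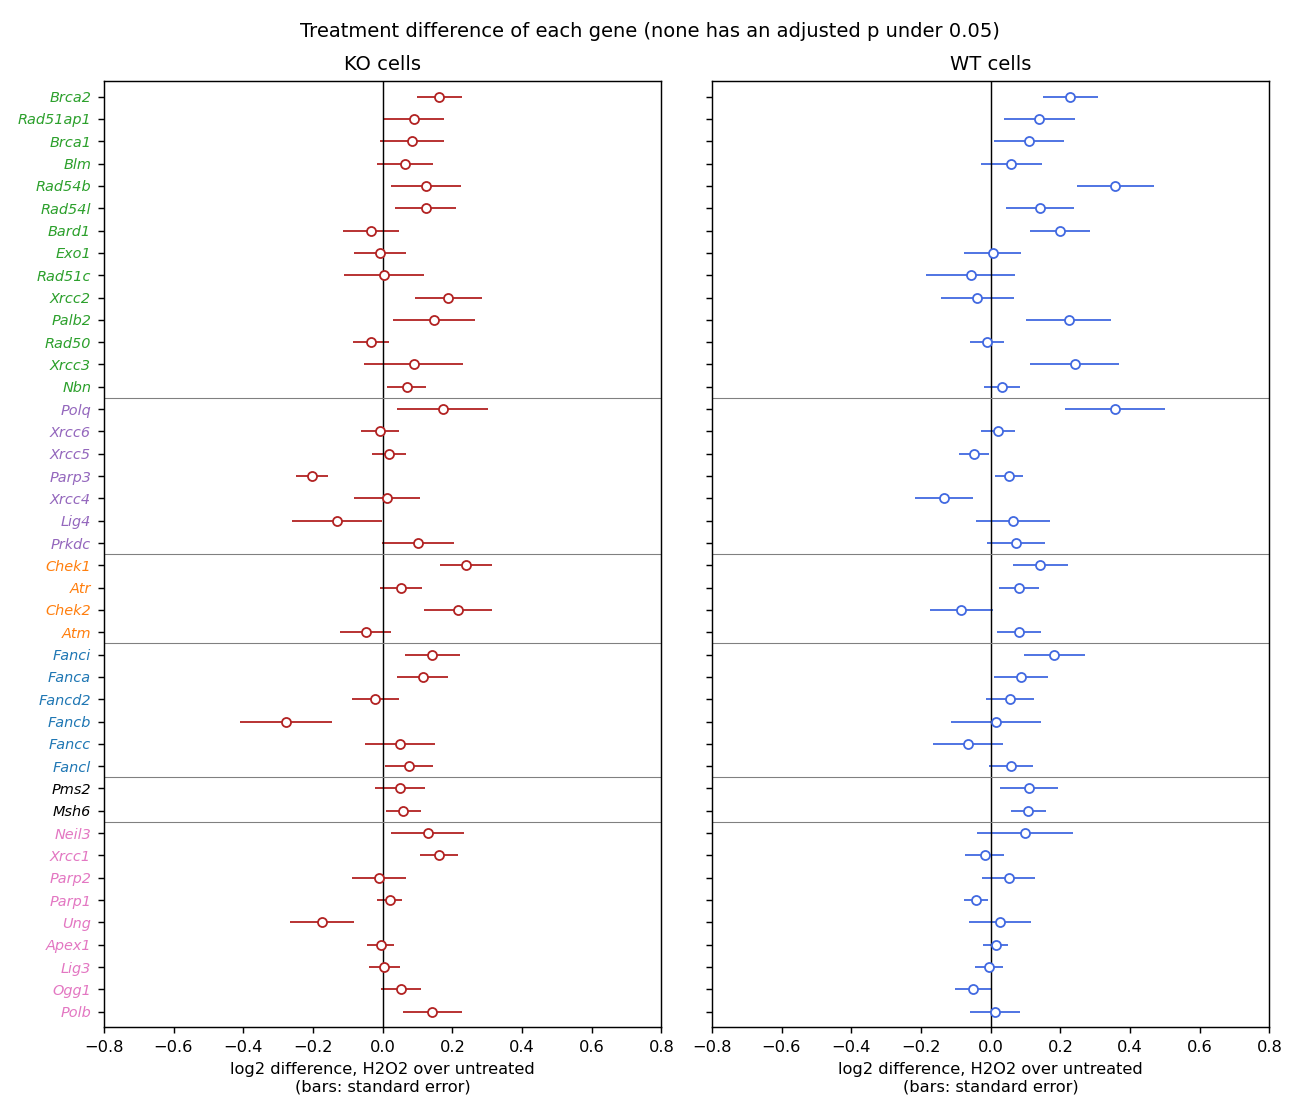
Log2 difference of H2O2 over untreated for each of the 42 genes in knockout cells (left) and wild-type cells (right), with bars for the standard error. No gene has an adjusted p under 0.05 in edgeR, and all values lie between -0.28 and 0.36.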

How the data were processed

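Per the labels' protocols, TruSeq Stranded mRNA libraries were made from column-purified RNA (RNeasy) and read as pairs on a NextSeq. The authors deposited expected counts per gene symbol, already whole numbers, and an RPKM table; the submitters' processing notes name cutadapt, STAR, RSEM and mm10, without versions. The strand setting of the counting is not given in the sources used here. RPKM served only to compare levels between genes; CPM per kilobase of merged exons was added as an alternative after seeing the data.

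The expected counts were tested with edgeR 4.0.16 in R 4.3.3. Genes with few counts were removed with filterByExpr, libraries were scaled by TMM, and 1 robust quasi-likelihood model was fitted to the 4 group means of all 15 libraries (11 residual degrees of freedom). Benjamini-Hochberg adjustment ran over 13085 genes, and a gene was called at an adjusted p under 0.05. The procedure was run on simulated counts in which few genes were changed, equally many up and down. That setting is unlike the genotype comparison, where 66.8% of genes were called without treatment, so it does not test the calls there. SE is approximate, from the fit. CPM is scaled by TMM. Library totals of 12.3 to 16.0 M counts set the precision, and PCR reads without molecular identifiers are not independent molecules.

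The genes and lists were chosen with earlier results of these data known. Values in each library are given for the 3 called genes of each pathway with the largest difference and at least 5 CPM, called genes against their pathway's direction and the 4 damage kinases. Other genes were given by mean, and Parp3, Rad54b and the genes called in 1 comparison were singled out after their values were seen. From the other lists the largest rise and fall were taken, or the smallest p-values. Nhej1, Paxx, Dclre1c, Poll and Mutyh were named after their values were seen. Positions come from GENCODE M21 (mm10) and promoters from RefSeq. Replicate 9 was kept as wild type, as its title says. A few named genes of the other lists are not reported here.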

Additional observations from a re-analysis of the deposited data

Results flagged for a closer look

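Within groups of 4 libraries, 1 library stood apart from the other 3 for 5 of 126 gene-by-group sets (the gap to the nearest library, over the whole range, passed Dixon's 95% value), where chance flags about 5%. In untreated knockout cells, Polb was at 13.2 CPM in replicate 4, against 14.8 to 14.9 CPM in the other libraries. In wild-type cells with H2O2, Xrcc6 was at 51.8 CPM in replicate 15, against 58.5 to 59.8 CPM, and Apex1 at 121 CPM in replicate 16, against 112 to 114 CPM. In untreated wild-type cells, Lig4 was at 10.6 CPM in replicate 11, against 8.08 to 8.37 CPM, and Polb at 19.1 CPM in replicate 10, against 21.5 to 21.9 CPM. Lig4 and Polb stayed called as lower in untreated knockout cells without any 1 of the 15 libraries.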

How the results depend on the processing

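The 42 repair genes kept their side of the threshold, and the 34 called ones their direction, for untreated knockout against wild type, under RLE, upper quartile and total-count scaling, both other filters, a fit of the 2 groups alone, DESeq2, and without any 1 library (34 called each time). Of all genes, 8399 to 8773 were called in that comparison without any 1 library. The direction changed for 6 of the 42 repair genes, none of them called. Without 1 library their log2 differences ranged from -0.12 to 0.0098 for Chek2, -0.059 to 0.18 for Xrcc3, -0.020 to 0.051 for Fancl, -0.018 to 0.027 for Lig3, -0.0047 to 0.036 for Nbn and -0.053 to 0.00014 for Ogg1. With total counts the values were -0.012 for Nbn, -0.018 for Fancl and -0.021 for Lig3, and with upper quartile scaling -0.0050 for Fancl and -0.0084 for Lig3. Under H2O2, 30 to 32 of the 42 were called without 1 library, beside 7965 to 8639 of all genes. Requiring 1.5-fold left 19 of the 42 called without treatment and 21 with H2O2, 3191 and 3329 of all genes, and 27 other repair genes. For H2O2 in knockout cells, DESeq2 called 1 of the 42 and 37 of all genes. In both genotypes DESeq2 gave some of the 42 no adjusted p for H2O2, so it could not call them. In knockout cells 27 genes were called for H2O2 with no filter, 1 at 1.5-fold, and 0 to 21 without 1 library. For H2O2 in wild-type cells, DESeq2 called 9 genes, no filter 12, the 2 groups alone 0, 1.5-fold 0, and 0 to 13 genes were called without 1 library. For the interaction these numbers were 10 with DESeq2, 5 with no filter and 0 to 3 without 1 library. For knockout over wild type under H2O2, the median log2 differences with total counts were 0.54 for Fanconi and 0.19 for base excision genes. In the same comparison, the end-joining median was -0.29 to -0.11 without 1 library. For untreated knockout over wild type, the median of base excision genes was 0.31 to 0.37 without 1 library. The causes of these shifts were not tested. No paired analysis was possible because the groups share no replicate numbers. Precision is limited for the genes with the fewest counts, such as Polq and Neil3, where 1 wild-type library held as few as 50 counts.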
